A study of Rattus norvegicus with 30 samples.

Results

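Cd44 and S100a4 were followed through 3 brain areas of rats examined 3 months after traumatic brain injury (TBI). They are 2 of the 26404 Ensembl genes in each count table, taken as the rows ENSRNOG00000006094 (Cd44) and ENSRNOG00000011821 (S100a4). The study names both genes among its treatment targets. These came from genes that changed in perilesional cortex as well as in thalamus and that compounds also regulated in neuronal cells. The genes were thus chosen in part by their difference between TBI and sham in cortex and thalamus. That difference in those areas is therefore given as a description, without a test. mRNA came from adult male Sprague-Dawley rats of 330 to 371 g at the operation, and no age was given. In 5 rats (rats 6 to 10), lateral fluid-percussion injury drove a pressure pulse against the intact dura through an opening over the left parietal lobe, and 5 sham-operated animals (rats 1 to 5) had the anesthesia and the surgery without the pulse. All rats received pentobarbital and chloral hydrate with magnesium sulphate in propylene glycol and ethanol for the operation, and isoflurane before decapitation. The perilesional cortex, the ipsilateral thalamus and the hippocampus of the same 10 rats gave 30 libraries, and the piece labelled dorsal hippocampus was dissected as the dentate gyrus with part of CA3. Each library is 1 area of 1 animal.

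CD44 is a glycoprotein of the cell surface and the main receptor for hyaluronan, a large sugar polymer of the extracellular matrix. It also binds osteopontin, links to the actin cytoskeleton through ezrin, radixin and moesin, and takes part in cell adhesion and migration. In brain it is found on some astrocytes and on leukocytes, and reactive astrocytes are known to carry more of it. S100A4 is a small calcium-binding protein of the S100 family that binds non-muscle myosin inside cells and is also released from them. It is known from fibroblasts, leukocytes, white matter astrocytes and metastatic tumour cells. The count tables hold identifiers without names, so partner genes, other S100 genes and cell type markers were not analysed here, and the labelled tissues were not checked against their markers. In these pieces of tissue, more cells of a type and more RNA per cell cannot be told apart.

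The regions around the start of both genes are shown because the genes moved together in the cortex. The sequences are from RefSeq (build GRCr8, which is not the build of the counts), both genes were matched by symbol, and each runs 5′ to 3′ on the strand of its gene. Capitals mark the 50 bases from the start of the gene onwards. The Cd44 region lies at chr3:109699375-109699674 on the minus strand and the S100a4 region at chr2:178388279-178388578 on the plus strand.
Cd44: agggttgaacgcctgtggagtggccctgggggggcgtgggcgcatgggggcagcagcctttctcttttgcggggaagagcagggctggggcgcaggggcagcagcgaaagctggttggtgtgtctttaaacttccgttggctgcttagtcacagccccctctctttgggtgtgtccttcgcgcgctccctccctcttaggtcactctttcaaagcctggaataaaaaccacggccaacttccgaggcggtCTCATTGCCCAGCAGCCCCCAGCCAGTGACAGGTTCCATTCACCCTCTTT
S100a4: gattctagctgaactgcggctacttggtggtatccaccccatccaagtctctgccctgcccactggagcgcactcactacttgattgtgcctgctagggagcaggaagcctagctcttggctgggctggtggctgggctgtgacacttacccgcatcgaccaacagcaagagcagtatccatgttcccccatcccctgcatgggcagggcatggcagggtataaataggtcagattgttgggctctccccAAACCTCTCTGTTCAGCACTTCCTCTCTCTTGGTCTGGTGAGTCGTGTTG
Of the letters searched on both strands, TATAAA occurred once, in the S100a4 region on the strand of the gene, with its first base at position -31, counted with the first base of the gene as 0. The Cd44 region did not hold TATAAA, and 14.2% of the 33469 regions of this length held it. Neither region held GGGCGG (33.1% of all regions), TGANTCA (7.33%, where N is any base) or the consensus of NF-kappaB sites (7.51%). The bases G and C made up 60.3% of the Cd44 region and 56.3% of the S100a4 region, against a median of 51.7% over all regions. These matches describe letters in a window and were not tested as binding sites.

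Library totals lay between 21992859 and 31799879 counts. In the hippocampus, the 10 most counted genes took 44.1% and 40.9% of the counts of sham rats 4 and 5, and between 9.96% and 16.4% in the other 8 libraries. Both hippocampal libraries that the study set aside for low alignment were from sham-operated animals, and it does not name them. All 10 hippocampal libraries are used here. The hippocampal libraries labelled rat 3 (sham) and rat 8 (TBI) were unlike the other tissue of their own rats. Over 15 genes that part the rats alike in cortex and thalamus, with correlations with treatment of 0.08 to 0.58 in size, the library labelled rat 3 was most like the cortex and thalamus of rat 8 (r = 0.93, against -0.56 with rat 3). The library labelled rat 8 was most like rat 3 (r = 0.92, against -0.40 with rat 8). Of the other 8 libraries, 7 were most like their own rat, and the exception was rat 5 (r = 0.86 with its own rat and 0.93 with rat 9). With genes correlated with treatment by less than 0.3, only 4 genes were left. The libraries labelled rat 3 and rat 8 were again unlike their own rats (r = -0.20 and -0.09) but were then most like rats 4 and 6. Of the other 8 libraries, 6 were then most like their own rat, and the exceptions were rat 6 (r = 0.54 with its own rat and 0.94 with rat 1) and rat 10 (0.89 and 0.92 with rat 6). These are correlations across few genes, which are not independent. Neither Cd44 nor S100a4 was among the 15 genes. Labels were kept, and the hippocampal fits of TBI against sham are given with and without rats 3 and 8. The exact permutation test was run only with all 10 hippocampal libraries. In TMM-scaled CPM, which put the counts of each library on a common size, every library is shown in the plot of levels by rat.

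**Figure D1:**
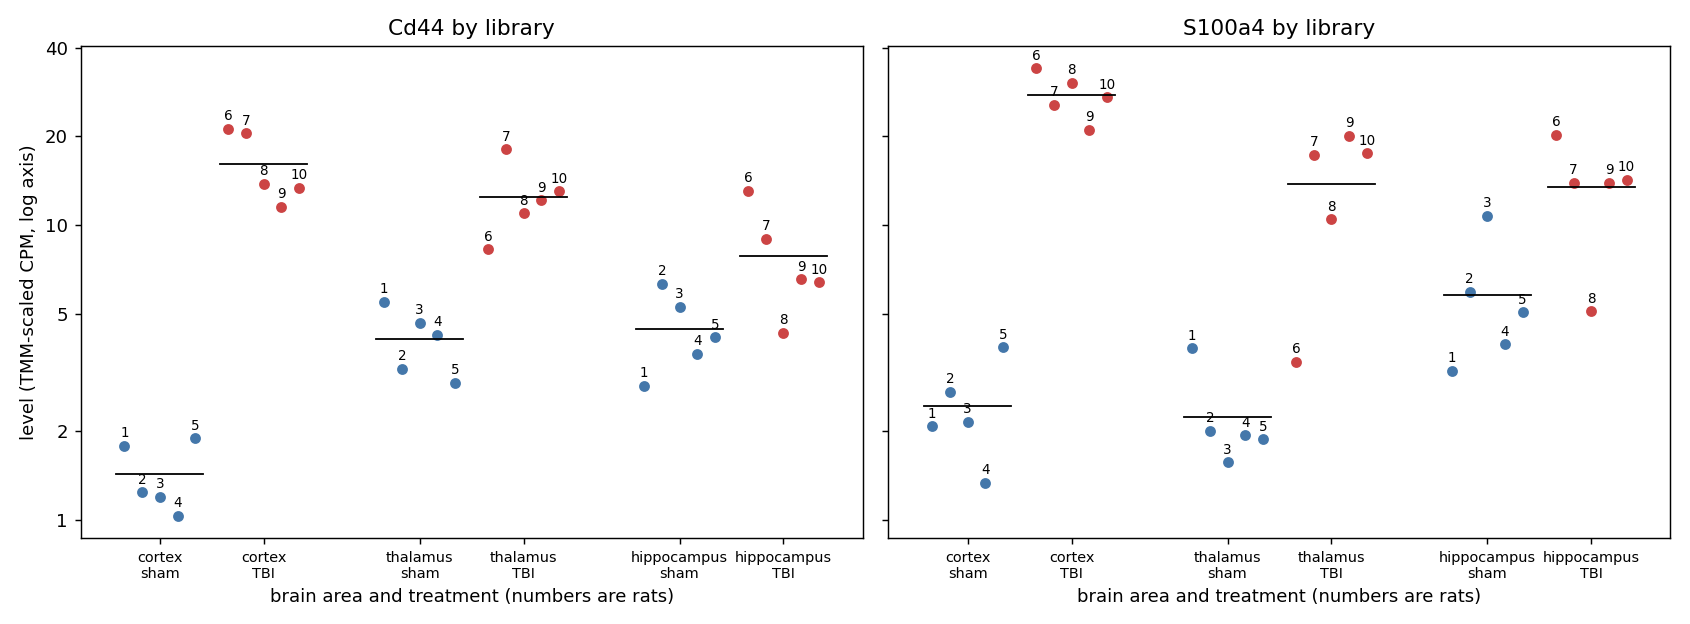
Levels of Cd44 (left) and S100a4 (right) in TMM-scaled CPM on a log axis, by brain area and treatment. Each point is 1 library with its rat number above it, and horizontal lines are means of 5 rats. In the cortex the lowest TBI value is 11.5 CPM for Cd44 and 21.1 CPM for S100a4, far above every sham-operated animal. In the hippocampus rat 8 (TBI) lies within the sham range for both genes, and rat 3 is the highest sham library for S100a4 but not for Cd44.

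In the perilesional cortex, both genes were about 11-fold higher after TBI, and both went from at most 110 reads per library to at least 344. Cd44 was at 1.78, 1.24, 1.2, 1.03 and 1.89 CPM in sham rats 1 to 5. In TBI rats 6 to 10 it was at 21.2, 20.5, 13.8, 11.5 and 13.4 CPM. The groups did not overlap, and the lowest TBI library stood 6.10-fold above the highest sham library. The means were 1.43 ± 0.38 CPM (SD, n = 5) and 16.1 ± 4.44 CPM (SD, n = 5), and the log2 fold change in edgeR was 3.50 (standard error 0.22). S100a4 was at 2.08, 2.73, 2.16, 1.34 and 3.85 CPM in the sham-operated animals. After TBI it was at 34.1, 25.6, 30.4, 21.1 and 27.2 CPM in rats 6 to 10. These groups did not overlap either, with a 5.48-fold step from the highest sham to the lowest TBI library. The means were 2.43 ± 0.94 CPM and 27.7 ± 4.89 CPM (SD, n = 5 each), and the log2 fold change was 3.50 (standard error 0.22).

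Both genes thus had a nearly equal response in the cortex, and the same rats stood at the ends of the range. Rat 6 was the highest and rat 9 the lowest TBI library for both genes, and rat 5 was the highest and rat 4 the lowest sham library. The sham counts were low, 27 to 54 reads for Cd44 and 35 to 110 for S100a4, and counting error alone was up to 19.2% of a Cd44 value and 16.9% of an S100a4 value. TBI libraries all lay above sham libraries for 10.2% of the 17185 genes tested in the cortex, and a log2 fold change of at least 1 was found for 4.36%. By the gap between the lowest TBI and the highest sham library, Cd44 was in place 7 (a gap of 2.54 on the log2 scale) and S100a4 in place 9 (2.42). By log2 fold change they were in places 12 and 11. The places describe the contrast that chose the genes and are not evidence for it.

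In the thalamus, Cd44 was about 3-fold and S100a4 about 6-fold higher after TBI, and rat 6 lay low for both. Cd44 was at 5.50, 3.25, 4.67, 4.26 and 2.92 CPM in the sham-operated animals, and at 8.28, 18.1, 11, 12.2 and 13.0 CPM in TBI rats 6 to 10. The groups did not overlap, and rat 6 was the TBI library nearest to the sham-operated animals. The log2 fold change was 1.60 (standard error 0.23), from 4.12 ± 1.05 to 12.5 ± 3.59 CPM (SD, n = 5 each). S100a4 was at 3.82, 2.01, 1.57, 1.94 and 1.88 CPM in the sham-operated animals, and at 3.44, 17.3, 10.5, 20.1 and 17.5 CPM after TBI. Rat 6 lay below sham rat 1 and above the other sham libraries, so that TBI was higher in 24 of 25 pairs of libraries. The other TBI libraries were all above 10 CPM. The log2 fold change was 2.60 (standard error 0.41), from 2.24 ± 0.90 to 13.8 ± 6.8 CPM (SD, n = 5 each), and 2.86 without rat 6.

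The gap between the groups in the thalamus was 0.58 on the log2 scale for Cd44, place 6 of the 16605 genes tested, of which 2.75% had all TBI libraries above all sham libraries. For S100a4 it was -0.15, place 1354, although its log2 fold change was in place 9 and that of Cd44 in place 76. Without rat 6, which decided this gap, it was 1.43 for S100a4 and 0.98 for Cd44. Without sham rat 1, it was 0.74 for S100a4. A log2 fold change of at least 1 was found for 2.23% of the genes tested.

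**Figure D2:**
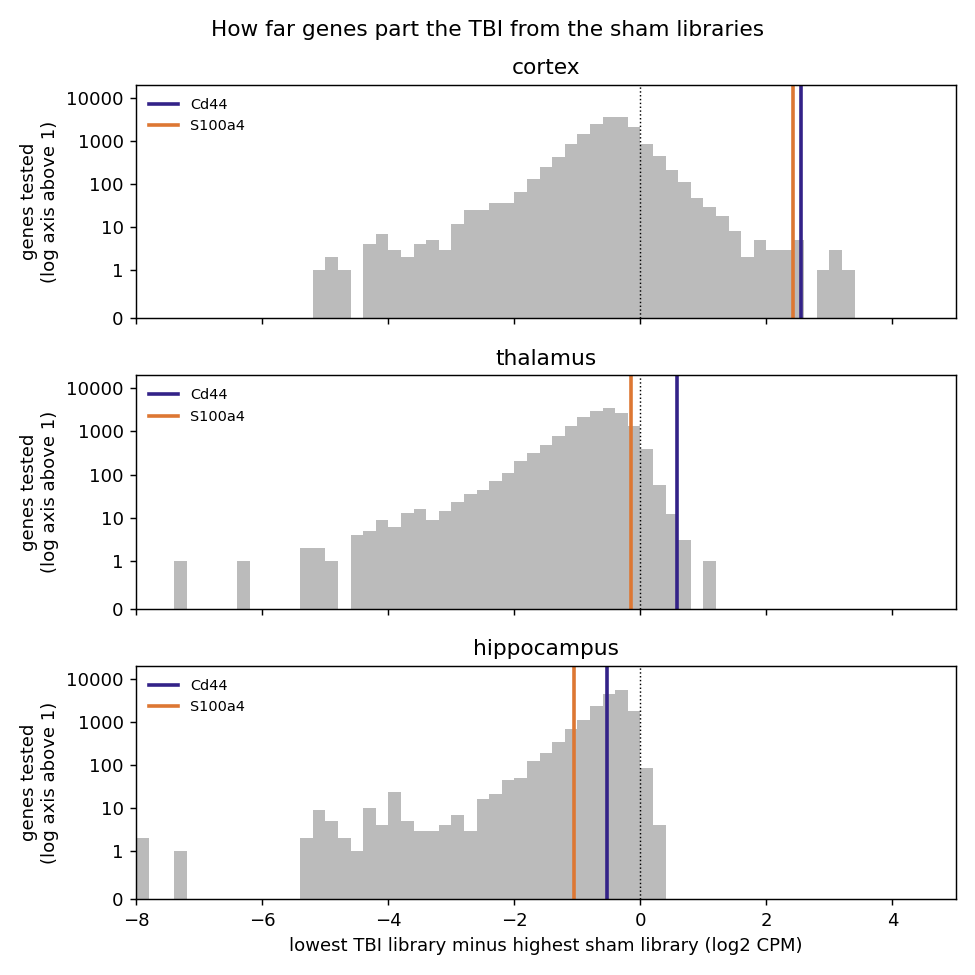
Number of genes tested (bars, log axis above 1) by the lowest TBI minus the highest sham library in log2 CPM, for each brain area. Coloured lines mark Cd44 and S100a4, and values right of the dotted line at 0 mean that the groups do not overlap. Both genes lie at the right end in the cortex (2.54 and 2.42), Cd44 alone lies beyond 0 in the thalamus (0.58), and neither does in the hippocampus (-0.54 and -1.06).

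The study left the hippocampus out of its gene list. There, with all 10 libraries, neither gene passed the edgeR test adjusted over all genes, and both had higher means after TBI. Cd44 was at 2.86, 6.32, 5.30, 3.66 and 4.17 CPM in sham rats 1 to 5, and rats 6 to 10 with TBI had 13.1, 8.97, 4.32, 6.55 and 6.40 CPM. The library labelled rat 8 lay within the sham range, and TBI was higher in 23 of 25 pairs of libraries. The log2 fold change was 0.81 with a standard error of 0.30, and edgeR's quasi-likelihood test gave an adjusted p = 0.518 over all genes. S100a4 was at 3.21, 5.94, 10.8, 3.94 and 5.06 CPM in the sham-operated animals, and at 20.3, 13.9, 5.11, 13.9 and 14.2 CPM after TBI. Here the library labelled rat 3 stood above the other sham libraries, and the library labelled rat 8 lay below 2 of the sham libraries. Its log2 fold change was 1.2 with a standard error of 0.42, and the same edgeR test gave an adjusted p = 0.509. No gene passed that threshold in edgeR among the 16963 tested (0%), where 1432 had an unadjusted p under 0.05 and DESeq2 called 41. All TBI libraries lay above all sham libraries for 0.519% of genes, and 0.295% had a log2 fold change of at least 1. The two-sided exact permutation test on log2 CPM of each gene alone, not adjusted over genes, gave p = 0.0397 for Cd44 and p = 0.0238 for S100a4. The share of all genes with such a permutation p is not given here.

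Without rats 3 and 8, the hippocampal S100a4 values fell into separate ranges, 3.21 to 5.94 CPM in 4 sham-operated animals and 13.9 to 20.3 CPM in 4 rats with TBI. Then edgeR gave a log2 fold change of 1.78 with a standard error of 0.19 (adjusted p = 0.000393). In this fit, 1.45% of the 16960 genes were called higher. The libraries left out are the highest sham and the lowest TBI library for S100a4. They were singled out with genes in part correlated with treatment. Leaving them out therefore favours a separation, and this p is not evidence for a rise. Without rat 3 alone the adjusted p in edgeR was 0.161, and without rat 8 alone it was 0.209. For Cd44 without rats 3 and 8, edgeR gave 1.03 with a standard error of 0.29 (adjusted p = 0.145). Its groups then lay apart by 0.019 on the log2 scale, and 5.29% of genes had all TBI above all sham libraries in this subset. Without sham rats 4 and 5, the log2 fold changes were 0.72 for Cd44 and 1.03 for S100a4 (adjusted p = 0.85 for each in edgeR). Within the 7 hippocampal libraries whose column headers carry the code FC120 (sham rats 2 to 4, TBI rats 6 to 9), they were 0.67 and 0.91 (adjusted p = 0.890 for each in edgeR). Both subsets include rats 3 and 8, and all TBI lay above all sham libraries for 1.33% and 2.40% of their genes.

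The estimated response had the order cortex, thalamus, hippocampus for both genes, as the plot of responses shows. In one fit over all 30 libraries, the log2 response of Cd44 was larger in the cortex than in the thalamus by 1.89 (standard error 0.38) and than in the hippocampus by 2.66 (standard error 0.38). For S100a4 the same differences were 0.90 (standard error 0.56) and 2.27 (standard error 0.55). The thalamus exceeded the hippocampus by 0.76 (standard error 0.36) for Cd44 and by 1.36 (standard error 0.55) for S100a4. That fit did not pair the areas of a rat. With the rat as a block, in the same order, the Cd44 differences were 1.86, 2.67 and 0.81 (standard errors 0.36, 0.36 and 0.35). Those of S100a4 were 1.01, 2.31 and 1.30 (standard errors 0.65, 0.63 and 0.64). No p is given, since the cortical and thalamic responses chose the genes. Single rats moved the S100a4 differences: that of cortex and thalamus was 0.57 without rat 6 and 0.58 without rat 1, about 1 standard error from 0, and that of thalamus and hippocampus was 0.89 without rat 3. For Cd44, thalamus and hippocampus differed by 0.52 without rat 2. Without the hippocampal libraries of rats 3 and 8, the thalamic excess over the hippocampus was 0.54 for Cd44 and 0.79 for S100a4, and the cortical excess was 2.43 and 1.69.

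**Figure D3:**
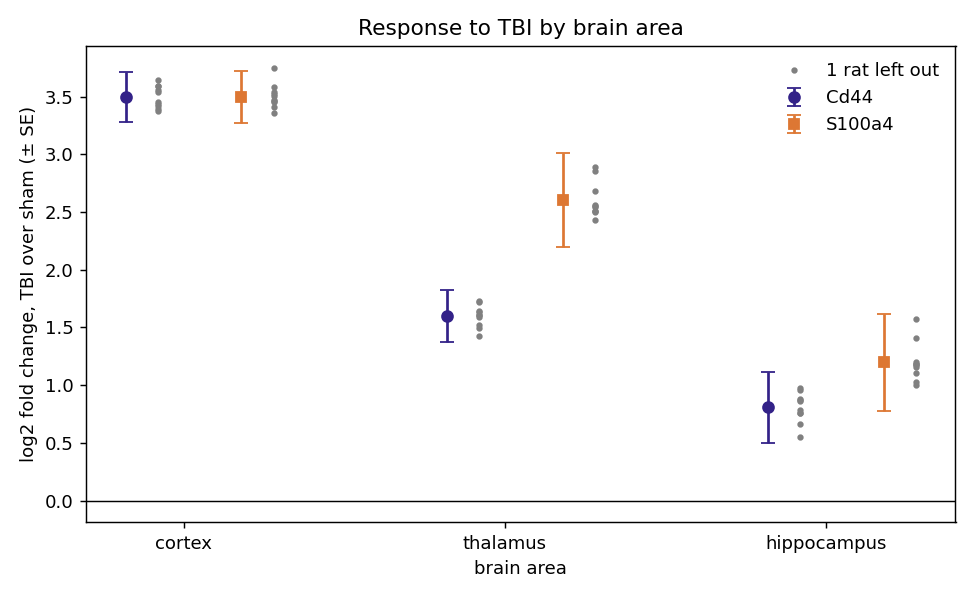
Log2 fold change of TBI over sham in edgeR for Cd44 (circles) and S100a4 (squares) in each brain area, with bars of 1 standard error and grey points for the fits that each left out 1 rat. Both genes are at 3.50 in the cortex, and S100a4 is above Cd44 in the thalamus (2.60 and 1.60).

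In sham-operated animals, Cd44 was lowest in the cortex and S100a4 was highest in the hippocampus. The sham libraries of cortex and thalamus are also one arm of the contrasts that chose the genes, and a gene chosen for a large rise may have a low sham level there, so these differences are descriptions without a test. On one scale for all 30 libraries, Cd44 was at 1.46 ± 0.39 CPM in the cortex, 3.66 ± 0.86 in the thalamus and 4.98 ± 1.52 in the hippocampus (SD, n = 5 each). In edgeR it was 2.51-fold higher in the thalamus and 3.45-fold higher in the hippocampus than in the cortex, each in 5 of 5 rats. Between thalamus and hippocampus, the log2 difference of Cd44 was -0.46 (standard error 0.22), and Cd44 was lower in the thalamus in 4 of 5 rats. It was -0.73 without rat 1 and -0.24 without rat 2. S100a4 was at 1.99 ± 0.77 CPM in the thalamus, 2.48 ± 0.94 in the cortex and 6.45 ± 3.30 in the hippocampus (SD, n = 5 each). It was 2.63-fold higher in the hippocampus than in the cortex and 3.27-fold higher than in the thalamus, each in 5 of 5 rats. Cortex and thalamus differed by 0.31 on the log2 scale (standard error 0.33), and by 0.05 without rat 5 and 0.66 without rat 1.

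Without the hippocampal library labelled rat 3, the log2 difference of the cortex from the hippocampus was -1.72 for Cd44 and -1.03 for S100a4, and that of the thalamus from the hippocampus was -0.39 and -1.35. The methods of the study give another instrument and longer reads for the thalamus, whereas the labels give one instrument for all, so a thalamic difference cannot be told apart from one in sequencing.

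Over the 6 groups on that scale, Cd44 had the order sham cortex, sham thalamus, sham hippocampus, TBI hippocampus, TBI thalamus and TBI cortex. Only the first 2 of these neighbours were apart, and each later neighbour overlapped with the next. Without rats 3 and 8, Cd44 in the sham and TBI hippocampus no longer overlapped, by 0.019 in log2 CPM scaled within the area. S100a4 had the order sham thalamus, sham cortex, sham hippocampus, TBI thalamus, TBI hippocampus and TBI cortex, in which every neighbour overlapped with the next. The TBI cortex reached 16.2 ± 4.58 CPM for Cd44 and 27.8 ± 4.89 CPM for S100a4 (SD, n = 5 each).

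The number of S100a4 counts per Cd44 count within a library does not depend on how libraries are scaled. It is not corrected for gene length and is compared only between libraries. In the cortex its ranges overlapped, between 1.17 and 2.19 in the sham-operated animals (mean 1.70 ± 0.45, SD, n = 5) and between 1.25 and 2.19 after TBI (1.78 ± 0.37, SD, n = 5). In the thalamus it was 0.69, 0.62, 0.34, 0.45 and 0.64 in sham rats 1 to 5, and rats 6 to 10 with TBI had 0.42, 0.96, 0.96, 1.66 and 1.35. All TBI libraries other than rat 6 thus had more S100a4 per Cd44 than any sham library. In the hippocampus it ranged from 0.94 to 2.03 in the sham-operated animals, with the highest value in the library labelled rat 3 and the others at 1.22 or less. After TBI it ranged from 1.18 to 2.23, with the lowest value in the library labelled rat 8. The plot of count ratios shows these values.

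Between areas in sham-operated animals, the ratio in the thalamus lay below every cortical and hippocampal value. As for the levels, a thalamic difference in the ratio cannot be told apart from one in sequencing. The mean log2 ratio was 1.63 higher in the cortex than in the thalamus, and the thalamus differed from the hippocampus by -1.21, each with the same sign in 5 of 5 rats. The cortex was higher than the hippocampus by 0.42, in 4 of 5 rats, and by 0.22 without rat 2. Without the hippocampal library labelled rat 3, the thalamus differed from the hippocampus by -1.03 and the cortex by 0.60. The ratio was compared after the values were seen, and it is given without a test.

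**Figure D4:**
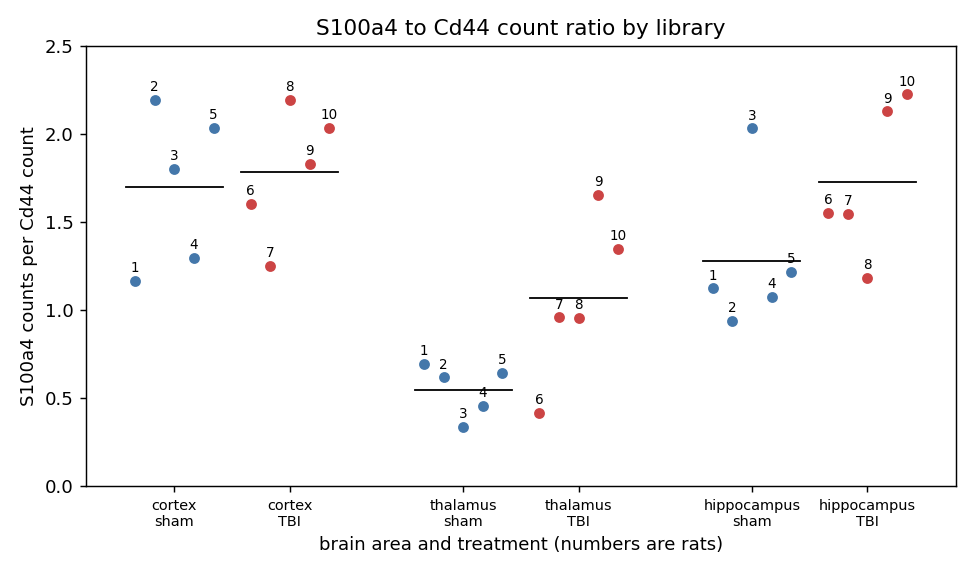
S100a4 counts per Cd44 count in each library, by brain area and treatment, with rat numbers above the points and means of 5 rats as lines. Sham libraries of the thalamus lie between 0.34 and 0.69, below all cortical libraries (1.17 to 2.19).

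Across the 30 libraries the changes of both genes were correlated, although the order of rats within groups differed between the genes. As deviations of log2 CPM from the sham mean of each area, Cd44 and S100a4 had a Pearson correlation of 0.94 (Spearman 0.93), with S100a4 in place 7 among the 14463 genes compared for likeness to Cd44, and Cd44 in place 22 for likeness to S100a4. The median over those genes was -0.05 for Cd44 and -0.03 for S100a4. This likeness holds the difference between sham and TBI, and the libraries come from only 10 rats. With the mean of each area and treatment group subtracted, it was 0.71 (Spearman 0.69), in places 25 and 64. Without the hippocampal libraries of rats 3 and 8, the Pearson correlations over 28 libraries were 0.94 from the sham mean and 0.65 from the group mean. These values are descriptions, without a test. By Pearson correlation of deviations from the sham mean, the gene most like Cd44 was ENSRNOG00000028896 (0.97) and that most like S100a4 was ENSRNOG00000010645 (0.98), both given by identifier only. By Spearman correlation the first was not among the 5 genes most like Cd44 and the second was again in place 1 for S100a4, and with group means subtracted they were outside the first 5 and in place 2. ENSRNOG00000028896 went from 2.96 ± 1.69 to 85.4 ± 35.6 CPM in the cortex (SD, n = 5 each), and 1 other identifier had counts that followed it closely (within 1.2-fold) throughout each area, so that reads may be shared. ENSRNOG00000010645 went from 1.09 ± 0.36 to 18.8 ± 5.58 CPM in the cortex (SD, n = 5 each). No other identifier had counts within 1.2-fold of those of Cd44 or S100a4 throughout any area.

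**Figure D5:**
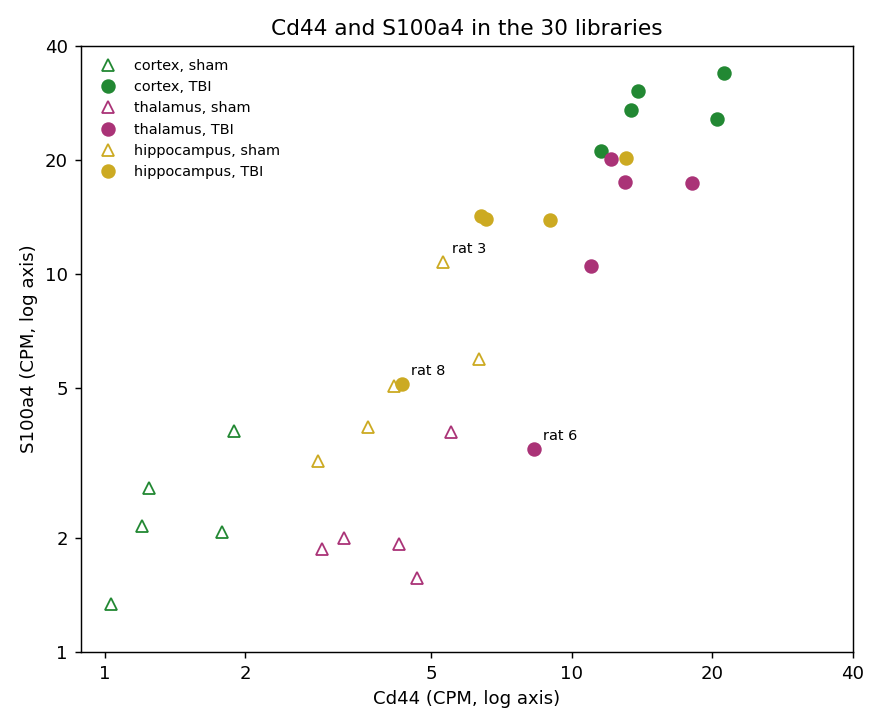
S100a4 against Cd44 in CPM (log axes) in the 30 libraries, with open triangles for sham-operated animals and filled circles for rats with TBI. Thalamic sham libraries lie to the right of the cortical sham libraries at a similar S100a4 level, and the thalamic library of TBI rat 6 and the hippocampal library labelled rat 8 lie among or near sham libraries of their areas.

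The order of the rats was not the same in every area. TBI rat 6 had the highest level of both genes in the cortex and in the hippocampus, and the lowest of the TBI libraries for both genes in the thalamus. Rat 7 was highest for Cd44 and rat 9 for S100a4 in the thalamus. The library labelled rat 8 was lowest for both genes among the TBI libraries of the hippocampus. Rat 8 was in place 4 of 5 for both genes in the thalamus, and in place 3 for Cd44 and place 2 for S100a4 in the cortex.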

How the data were processed

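The authors aligned reads to the Rnor_5.0 genome with STAR and deposited raw counts per Ensembl gene, 1 table per brain area. The counting tool, annotation release and use of strand are not given in the sources used here. Sample labels gave treatment, area and rat. All columns were matched to samples by name (0 unused). The tables hold no gene names. The pairing of both identifiers with the symbols Cd44 and S100a4 was given with the task and was not checked, since the reference table lists no Ensembl identifiers. The partner, S100 and marker lists planned were not run for this reason.

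Counts were analysed in R 4.3.3 with edgeR 4.0.16 and DESeq2 1.42.0. In each area, genes passing filterByExpr (minimum count 10, minimum total 15) were scaled by TMM and fitted with the robust quasi-likelihood model, with Benjamini-Hochberg adjustment over all genes and a threshold of 0.05. Standard errors are the log2 fold change over the square root of F. log2 CPM used a prior count of 3. Areas were compared in the 15 sham libraries (the planned test is not reported, because sham libraries of cortex and thalamus also entered the choice of the genes), and responses between areas in all 30 libraries. The same rats gave all areas, so the rat pairs the libraries. Deviations from group means correlated by 0.06 between cortex and thalamus, 0.12 between cortex and hippocampus and 0.04 between thalamus and hippocampus on average over the rats. Likeness used genes with a mean log2 CPM of at least 0, that is 1 CPM, in every area. Libraries of a group differed by more than sampling noise (the smallest chi-square was 15.1 times its degrees of freedom). The fits of TBI against sham in edgeR and DESeq2 were tested on simulated data, in which all genes had the same spread. Named genes were both members and the gene most like each. The members and lists were chosen with earlier results of these data known. Alternatives were other size factors (RLE), no filter on low counts, DESeq2, 1 fit over all libraries, the rat as a block and libraries left out. The FC120 subset, the alternatives for gaps, the count ratio and the correlation without rats 3 and 8 came after a look at the data. Rats 3 and 8 were themselves singled out from these data, so the fits without them rest on that choice too. Counting error percentages are 100 over the square root of the count and cover counting only.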

Additional observations from a re-analysis of the deposited data

Results flagged for a closer look

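In the thalamus, S100a4 was at 3.82 CPM in sham rat 1, set apart from the other 4 sham-operated animals, of which the nearest was at 2.01 CPM. The gap was 0.805 of the whole range of the group, above the threshold of 0.71, which chance passes in about 5% of groups of this size. In all, 12 groups were examined. Cd44 was also highest in this library among the sham thalamus, at 5.50 CPM.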

How the results depend on the processing

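No fold change, difference between areas or mean ratio changed sign under the alternatives run, but gaps between groups did. With single rats left out, the log2 fold changes ranged from 3.37 to 3.64 (Cd44) and 3.36 to 3.75 (S100a4) in the cortex, from 1.43 to 1.73 and 2.43 to 2.89 in the thalamus, and from 0.55 to 0.97 and 1.0 to 1.57 in the hippocampus, where the adjusted p in edgeR stayed between 0.239 and 0.786 for Cd44 and between 0.161 and 0.847 for S100a4. The hippocampal S100a4 call appeared without rats 3 and 8 together (1.78), a choice of libraries that favours it. The exact permutation test, on mean differences of 0.76 for Cd44 and 1.21 for S100a4, is not adjusted over genes. Gaps between groups ranged, with single rats left out, from 2.54 to 2.75 (Cd44) and 2.42 to 2.91 (S100a4) in the cortex, 0.58 to 0.98 and -0.15 to 1.43 in the thalamus, and -0.54 to 0.019 and -1.06 to 0.37 in the hippocampus. Without rats 3 and 8 together the hippocampal gaps were 0.019 for Cd44 and 1.21 for S100a4. The gap of S100a4 in the thalamus turned positive without rat 1 (0.74) or rat 6 (1.43), and those in the hippocampus without rat 8. Differences between responses ranged, with single rats left out, for cortex minus thalamus from 1.66 to 2.12 (Cd44) and 0.57 to 1.19 (S100a4), for cortex minus hippocampus from 2.44 to 2.88 and 1.85 to 2.53, and for thalamus minus hippocampus from 0.52 to 1.13 and 0.89 to 1.81. With the rat as a replicate block, the response of Cd44 was larger in the cortex than in the hippocampus by 2.67, and in sham-operated animals the thalamus differed from the hippocampus by -0.45 for Cd44. That sham difference ranged from -0.73 to -0.24 with single rats left out. The mean log2 count ratios differed by 1.63 (cortex and thalamus) and -1.21 (thalamus and hippocampus), values that pairing by rat cannot change. With single rats left out, these differences ranged from 1.44 to 1.86 and from -1.36 to -0.87. The difference of cortex and hippocampus was 0.60 without the library labelled rat 3, and ranged from 0.22 to 0.57 with single rats left out. By Spearman correlation, Cd44 was in place 13 for likeness to S100a4. DESeq2 gave no adjusted p for either gene in the hippocampus. The counts of called partner and S100 genes were not run because identifiers had no names. The low counts in sham cortex, 27 to 110 reads, limit the precision of the folds.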
